A study of Homo sapiens with 9 samples.

Results

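The genes described here encode the core proteins that carry heparan sulfate: the syndecans SDC1, SDC2, SDC3 and SDC4, the glypicans GPC1, GPC4 and GPC6, and the secreted cores HSPG2, AGRN and COL18A1. They were chosen by name, and each was read from a probe set that the platform annotation pairs with 1 gene. This left 6 of the 10 genes, all 4 syndecans and the glypicans GPC4 and GPC6, out of 14215 genes with such a probe set. GPC1, HSPG2 and COL18A1 stood only on probe sets paired with several genes and were not read, and AGRN was not analysed here. None of the secreted cores could therefore be described, and each of the 6 genes had a single probe set.

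The cells were SKOV3, an established human ovarian tumour line, kept for 3 days in serum-containing medium. The groups were cells given 50 µM peracetylated 4-deoxy-GlcNAc (Ac-4-deoxy-GlcNAc), cells given 50 µM peracetylated GlcNAc (Ac-GlcNAc) and untreated cells. Acetylation lets the amino sugar GlcNAc enter cells, and the 4-deoxy analog lacks a hydroxyl group of that sugar. Each group had 3 arrays, and each array held RNA from a culture flask of its own. All flasks came from the same line, and the labels name no vehicle in the untreated flasks.

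Heparan sulfate is a sulfated sugar chain of alternating GlcNAc and uronic acid residues, built in the Golgi on serines of a small set of proteins. Syndecans span the plasma membrane and bind growth factors, matrix and the cytoskeleton, and their outer parts can be shed by proteases. Glypicans are held at the surface by a lipid (GPI) anchor and modulate Wnt, Hedgehog, BMP and FGF signalling, while the secreted cores lie in basement membranes. Ovarian tumour cells use such chains to bind heparin-dependent growth factors. The arrays measured messenger RNA of the core proteins, not the proteins or their chains.

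Values are log2 levels made by the authors with RMA, and the median of an array was 6.58 to 6.65. The values of untreated replicate 2 were the least spread, 1.92 as an SD, where the remaining arrays had 2.07 to 2.18. Epithelial and SKOV3 markers (10 of 10 measured) had mean log2 levels of 9.14 to 9.24 with Ac-4-deoxy-GlcNAc, 9.18 to 9.26 with Ac-GlcNAc and 9.32 to 9.33 in untreated cells, with ERBB2 at 12.2 and PAX8 at 10.7. Marker lists for fibroblast (5 of 6 measured), endothelial (4 of 4) and leukocyte cells (3 of 5) had means between 4.55 and 5.62 on each array. WT1, an ovarian tumour marker on the first list, was at only 5.70. Of the 12 genes on these 3 lists, LUM, a fibroblast marker, had the highest level (6.94), above the median level of all probe sets (6.63), followed by PDGFRB (5.72) and PECAM1 (5.52), and the lowest was TEK (4.14).

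None of the 6 core genes changed at an adjusted p under 0.05 in any comparison between groups. The gene nearest to a call was SDC1, whose level with Ac-4-deoxy-GlcNAc was below that of untreated cells by 0.33 on the log2 scale and with a limma adjusted p of 0.0517. GPC6 had the largest difference with Ac-GlcNAc, 0.32 above untreated cells, with an adjusted p of 0.106. GPC4 had nearly equal means in the 3 groups.

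RefSeq start-site windows are shown for SDC1, which has 2 in the table, and for GPC6, because in at least 1 comparison every array of a group lay to the same side of the other group. Each window is 300 bases long, from 250 bases before to 50 after the start in GRCh38.p14, and is written 5′ to 3′ on the strand of the gene. Capitals mark matches on either strand to GGGCGG (the GC box bound by Sp1-type factors), CCAAT (the CCAAT box) or TATAAA (the TATA box).
SDC1, chr2:20225426-20225725, minus strand: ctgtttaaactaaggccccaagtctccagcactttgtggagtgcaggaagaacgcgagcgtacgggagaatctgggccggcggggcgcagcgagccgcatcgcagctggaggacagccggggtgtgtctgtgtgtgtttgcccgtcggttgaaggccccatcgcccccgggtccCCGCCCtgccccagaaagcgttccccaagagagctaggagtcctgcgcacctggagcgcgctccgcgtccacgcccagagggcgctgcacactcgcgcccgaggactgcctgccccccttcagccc
SDC1, chr2:20225081-20225380, minus strand: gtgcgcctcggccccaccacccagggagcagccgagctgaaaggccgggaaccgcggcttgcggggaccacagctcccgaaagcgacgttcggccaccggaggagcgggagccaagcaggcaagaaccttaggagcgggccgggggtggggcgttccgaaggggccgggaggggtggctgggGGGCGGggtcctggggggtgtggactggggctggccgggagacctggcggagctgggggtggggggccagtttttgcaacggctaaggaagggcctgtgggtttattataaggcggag
GPC6, chr13:93226557-93226856, plus strand: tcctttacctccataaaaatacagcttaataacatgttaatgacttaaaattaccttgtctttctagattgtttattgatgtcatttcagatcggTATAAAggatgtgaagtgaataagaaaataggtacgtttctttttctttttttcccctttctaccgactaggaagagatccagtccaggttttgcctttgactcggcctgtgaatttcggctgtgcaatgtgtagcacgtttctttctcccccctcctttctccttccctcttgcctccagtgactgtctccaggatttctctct
Both SDC1 windows are rich in G and C (67.7% and 70.7%) and hold 1 GC box match each, while the GPC6 window has 40% G and C and 1 TATA box match. A GC box match occurred in 45% of the 35116 windows that were counted, a CCAAT match in 34.6% and a TATA match in 11.5%. The windows of SDC3, SDC4 and GPC4 had 6, 8 and 2 GC box matches, and no window of SDC2 was read. These matches describe letters only, and the arrays did not measure promoter activity.

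SDC1 is the main syndecan of epithelial cells and is shed in many tumours. Its log2 levels were 8.69, 8.80 and 8.83 with Ac-4-deoxy-GlcNAc, 9.08, 9.03 and 9.23 with Ac-GlcNAc, and 8.98, 9.09 and 9.24 in untreated cells. All 3 Ac-4-deoxy-GlcNAc arrays lay below every other array, while the Ac-GlcNAc and untreated arrays overlapped. The mean was 8.77 ± 0.08 (SD, n = 3) with Ac-4-deoxy-GlcNAc against 9.10 ± 0.13 in untreated cells, a ratio of 0.795 (95% interval of the log2 difference -0.55 to -0.11). Against Ac-GlcNAc, at the same dose and time, the difference was -0.34 (SE 0.10, 95% interval -0.56 to -0.13, limma adjusted p = 0.102). Ac-GlcNAc and untreated cells differed by 0.01 (-0.20 to 0.23). Since the levels are relative to the RNA on an array, less transcript per cell and fewer cells with the transcript cannot be told apart.

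The SDC1 difference between Ac-4-deoxy-GlcNAc and untreated cells lay close to the threshold, and the call changed with the setting. It passed in 7 of 12 other settings, among them cyclic loess (-0.40, adjusted p = 0.0166), array weights (-0.39, 0.0199) and restriction to probe sets above the median level (adjusted p = 0.03). It did not pass in the others, where the adjusted p reached 0.166. Among them were the 6 compared arrays alone (adjusted p = 0.1) and the array SD as covariate (-0.39, 0.0891). Of the 6 fits that left out 1 of the compared arrays, only the fit without untreated replicate 1 called SDC1 (-0.39, 0.0316), and the others gave 0.0853 to 0.136. The difference was negative in each of these fits, between -0.40 and -0.26. Without untreated replicate 2, the array of narrow spread, it was -0.34 (adjusted p = 0.0886). Of the 10 epithelial and SKOV3 markers, MUC1, KRT19 and KRT7 fell (-0.72, -0.49 and -0.46) and CDH1 rose (0.45) between the same groups. Over all probe sets 5.64% were called lower and 5.38% higher. With Ac-GlcNAc against untreated cells 1 marker of this list was called lower, beside 0.235% of all probe sets. Between the compounds 1 was called higher, beside 0.896%. The part of the markers in the SDC1 difference was not tested. The SDC1 difference between the compounds passed in 1 of 12 settings, array weights (-0.30, adjusted p = 0.0373).

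**Figure D1:**
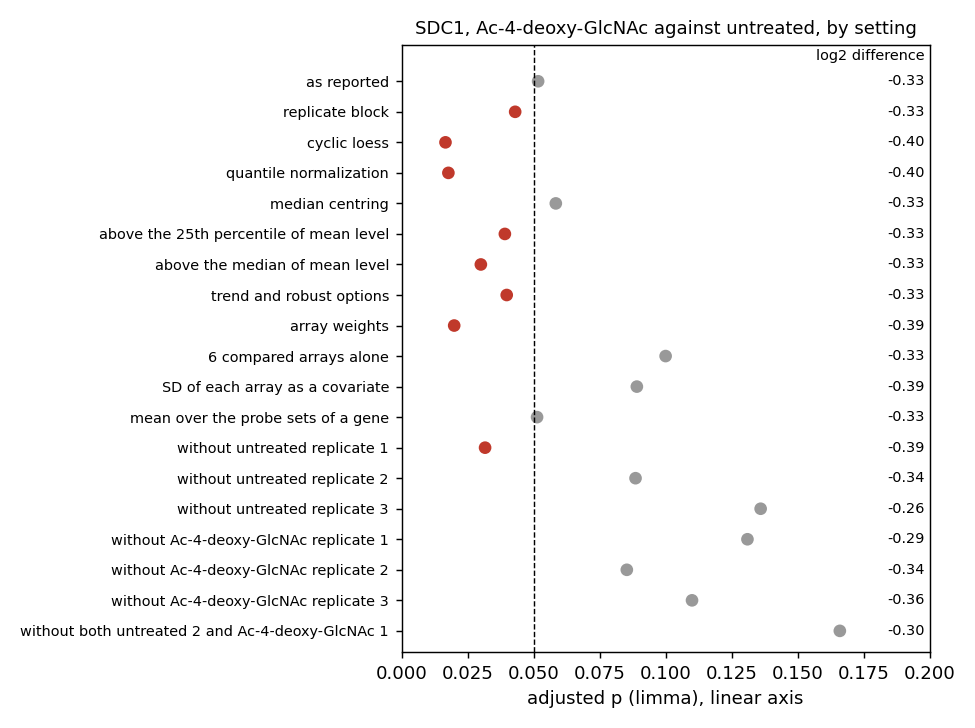
Adjusted p of the SDC1 difference between Ac-4-deoxy-GlcNAc and untreated cells (x axis, linear) under each setting (rows), with the log2 difference printed at the right. Red points are below the dashed line at 0.05 and grey points above it; the value as reported lies at 0.0517.

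The other syndecans varied less between groups. SDC2, the syndecan of mesenchymal cells that is also common in cultured tumour lines, had log2 levels of 10.05, 10.18 and 10.12 with Ac-4-deoxy-GlcNAc, 9.89, 9.90 and 10.10 with Ac-GlcNAc, and 9.94, 9.88 and 10.12 in untreated cells. The 3 groups overlapped, although the Ac-4-deoxy-GlcNAc mean was the highest. It differed from untreated cells by 0.14 (SE 0.10, 95% interval -0.08 to 0.36, adjusted p = 0.356) and from Ac-GlcNAc by 0.16 (-0.06 to 0.37, adjusted p = 0.592). The signs of the SDC1 and SDC2 differences with Ac-4-deoxy-GlcNAc were opposite, but that of SDC2 did not pass the test.

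SDC3, best known from neurons and muscle, had levels of 9.47, 9.50 and 9.54 with Ac-4-deoxy-GlcNAc, 9.61, 9.51 and 9.65 with Ac-GlcNAc, and 9.47, 9.61 and 9.83 in untreated cells. The untreated arrays were the most scattered, with an SD of 0.18 against 0.03 with Ac-4-deoxy-GlcNAc, and they spanned the range of the other groups. The differences from untreated cells were -0.13 (95% interval -0.36 to 0.09) with Ac-4-deoxy-GlcNAc and -0.04 (-0.27 to 0.18) with Ac-GlcNAc.

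SDC4, the widely expressed syndecan of focal adhesions, had levels of 10.03, 10.17 and 10.29 with Ac-4-deoxy-GlcNAc, 10.59, 10.32 and 10.28 with Ac-GlcNAc, and 10.29, 10.11 and 10.21 in untreated cells. Ac-GlcNAc replicate 1 was the highest array, and the other 2 arrays of that group lay near the top of the remaining values. The Ac-GlcNAc mean was 0.19 above untreated cells (95% interval -0.04 to 0.43, adjusted p = 0.264). Ac-4-deoxy-GlcNAc differed from Ac-GlcNAc by -0.23 (-0.47 to 0.0014, adjusted p = 0.371) and from untreated cells by -0.04 (-0.28 to 0.20).

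Of the glypicans, GPC4 had log2 levels of 8.79, 8.79 and 8.83 with Ac-4-deoxy-GlcNAc, 8.92, 8.89 and 8.60 with Ac-GlcNAc, and 8.94, 8.70 and 8.77 in untreated cells. The group means were 8.80 ± 0.02, 8.80 ± 0.18 and 8.80 ± 0.13 (SD, n = 3 each, in that order). The 95% intervals of the differences from untreated cells ran from -0.23 to 0.23 with either compound, and their upper bounds correspond to ratios of 1.17. The differences themselves were under 0.01, the smallest among the core genes in each comparison.

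GPC6, a glypican linked to Hedgehog and Wnt signalling, had levels of 7.88, 8.01 and 8.03 with Ac-4-deoxy-GlcNAc, 8.19, 8.18 and 7.98 with Ac-GlcNAc, and 7.86, 7.61 and 7.91 in untreated cells. Each Ac-GlcNAc array was above each untreated array, by a gap of 0.072 between the nearest ones, while the Ac-4-deoxy-GlcNAc arrays overlapped both groups. Ac-GlcNAc differed from untreated cells by 0.32 (SE 0.11, 95% interval 0.09 to 0.55), a ratio of 1.25, which did not pass (adjusted p = 0.106). It passed in 1 of 12 other settings, array weights (0.30, adjusted p = 0.0369), and was 0.15 with the array SD as covariate. With Ac-4-deoxy-GlcNAc the difference from untreated cells was 0.18 (-0.05 to 0.41, adjusted p = 0.269). Ac-4-deoxy-GlcNAc differed from Ac-GlcNAc by -0.15 (-0.38 to 0.08, adjusted p = 0.66). Both compounds are compared with the same untreated arrays.

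**Figure D2:**
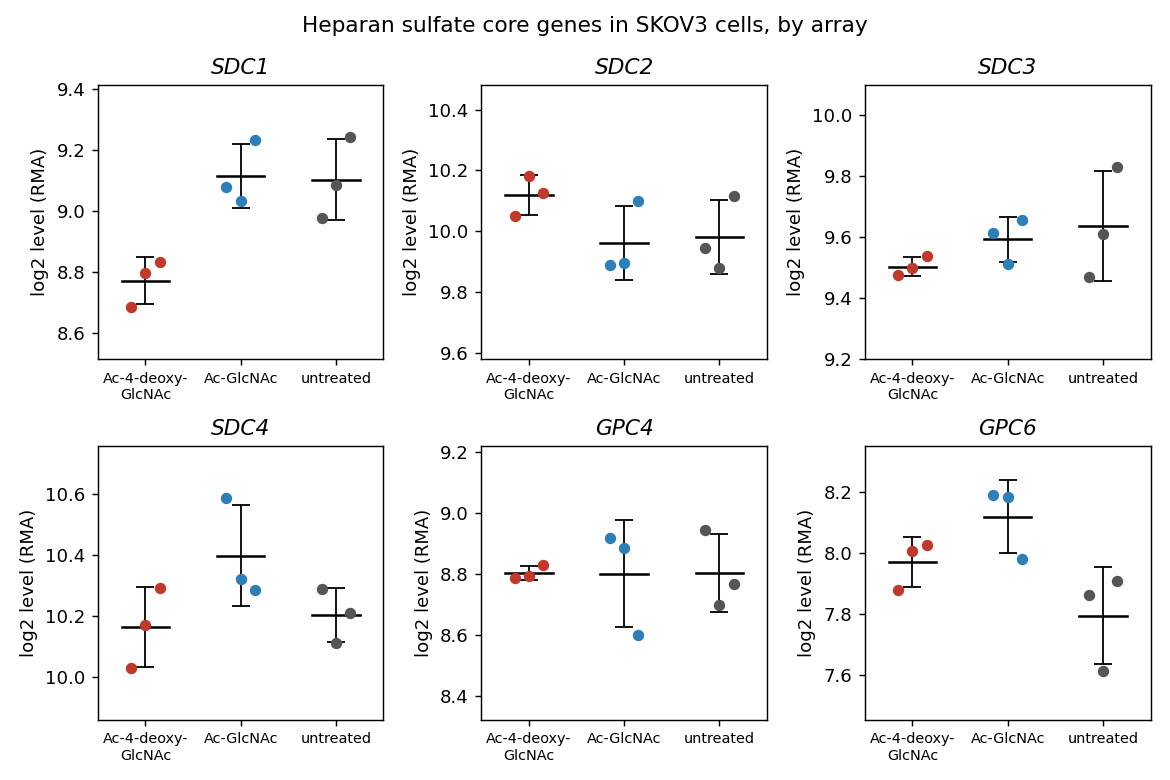
Log2 level (RMA) of each core gene on each array (points), with the group mean (bar) and SD (whiskers), for Ac-4-deoxy-GlcNAc, Ac-GlcNAc and untreated cells; each panel spans the same log2 range around its own centre. The SDC1 points with Ac-4-deoxy-GlcNAc, 8.69 to 8.83, lie below the other arrays of that gene, and the GPC6 points with Ac-GlcNAc lie above the untreated ones.

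The counts of the core genes are read against the whole table. With Ac-4-deoxy-GlcNAc against untreated cells, 0 of 6 core genes were called by limma, where 11% of 17859 probe sets were called, 5.38% higher and 5.64% lower. With Ac-GlcNAc against untreated cells 0 of 6 were called, where 0.442% of probe sets were (0.207% higher, 0.235% lower). Between the compounds 0 of 6 were called, where 2.38% were (0.896% higher, 1.48% lower). These shares are not fixed, since single arrays and settings moved the counts behind them by more than 1.5 times. For Ac-4-deoxy-GlcNAc against untreated cells, 1968 probe sets as reported became 890 or 604 when Ac-4-deoxy-GlcNAc replicate 1 or 3 was dropped, and 3076 or 1003 when untreated replicate 1 or 2 was. They became 596 with the array SD as covariate. For Ac-GlcNAc against untreated cells, 79 became 9, 7 or 4 when Ac-GlcNAc replicate 1, 2 or 3 was dropped, and 1359, 23 or 248 when untreated replicate 1, 2 or 3 was. The count fell to 38 or 48 when Ac-4-deoxy-GlcNAc replicate 2 or 3, which only add to the shared spread, was dropped. It was 2 with the array SD as covariate and 1760 with array weights. Between the compounds, 425 became 141 or 199 when Ac-4-deoxy-GlcNAc replicate 1 or 3 was dropped, 148, 165 or 159 when Ac-GlcNAc replicate 1, 2 or 3 was, and 659 when untreated replicate 2 was. It was 1187 with array weights. At an unadjusted p under 0.05 there was 1 core gene in each comparison: SDC1 for Ac-4-deoxy-GlcNAc against untreated cells and between the compounds, and GPC6 for Ac-GlcNAc against untreated cells. Over all probe sets that share was 31.2%, 26.4% and 13.6% in the order Ac-4-deoxy-GlcNAc against untreated, Ac-GlcNAc against untreated and Ac-4-deoxy-GlcNAc against Ac-GlcNAc.

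In each comparison 1 core gene, the same as above, had groups whose arrays stood fully apart. That held for 32.1% of all probe sets for Ac-4-deoxy-GlcNAc against untreated cells, 32.3% for Ac-GlcNAc against untreated cells and 21.2% between the compounds. The median log2 difference of the 6 genes was -0.02 with Ac-4-deoxy-GlcNAc against untreated cells, where the median of all probe sets was -0.05. With Ac-GlcNAc against untreated cells it was 0.0054, beside -0.02 over all probe sets, and between the compounds -0.12, beside 0.0031. Across the 3 groups the moderated F test called 0 of 6 core genes, where 8.36% of probe sets were called, with SDC1 at an adjusted p of 0.0613 and GPC6 at 0.123.

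**Figure D3:**
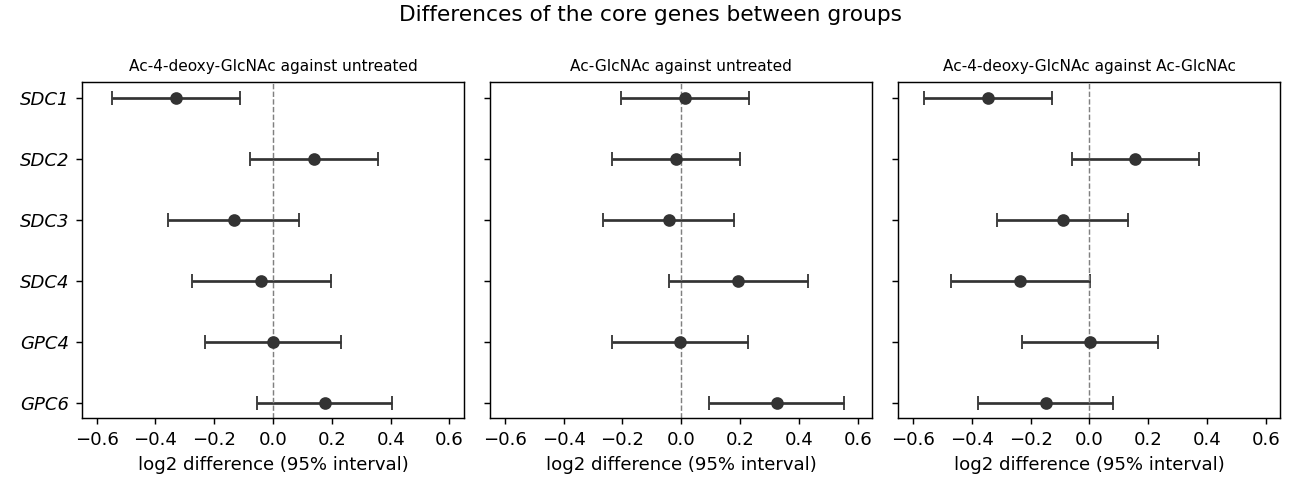
Log2 differences of the 6 core genes (points) with their 95% intervals (whiskers, for each gene alone) in the 3 comparisons. Only the SDC1 intervals of the left and right panels and the GPC6 interval of the middle panel lie clear of 0, and the GPC4 points sit at 0.

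Over the 9 arrays SDC1 and SDC3 varied together (Pearson r = 0.79), as did SDC4 and GPC6 (0.71), while the other pairs of core genes had r between -0.43 and 0.47. These values describe 9 arrays that share their groups and their normalization. No core gene was called by the F test, so no gene was named as most like one by the rule. For SDC1, picked after its values were seen, the genes with the most similar pattern were AIG1 (r = 0.988), JADE2 (0.988) and CCL28 (0.98), out of 14214 genes over the 9 arrays.

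Other genes around the core proteins were counted from lists, which were chosen with earlier results of these data known. The counts therefore cannot test whether a list as a whole differed from other genes. Listed genes without a probe set of 1 gene were not read. Of 11 other genes whose products can carry heparan sulfate, 2 rose with Ac-4-deoxy-GlcNAc against untreated cells and 0 fell, beside 5.38% and 5.64% of all probe sets. NRP1, a coreceptor for VEGF and semaphorins, was at 10.19 ± 0.18 against 9.76 ± 0.08 in untreated cells (log2 difference 0.43, limma adjusted p = 0.0219). CD44, the hyaluronan receptor, was at 9.42 ± 0.14 against 9.06 ± 0.16 (0.36, adjusted p = 0.0499). NRP1 was called in 3 and CD44 in 2 of the 6 fits with 1 compared array left out. Of the 4 endothelial markers PECAM1 also rose (0.41, adjusted p = 0.0178), beside 5.38% of all probe sets. Its mean level was low, 5.52, and its part was not tested. With Ac-GlcNAc against untreated cells, and between the compounds, limma called 0 of the 11, beside 0.442% and 2.38% of all probe sets. At an unadjusted p under 0.05 there were 3 and 2, beside 26.4% and 13.6%. The list median with Ac-4-deoxy-GlcNAc against untreated cells was -0.11, beside -0.05 for all probe sets. It was the value of GPC3, at a low level of 4.23 against 4.34, below the 25th percentile of mean levels (4.89).

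Core proteins that carry chondroitin, dermatan or keratan sulfate gave 3 falls and 0 rises among 17 genes with Ac-4-deoxy-GlcNAc against untreated cells, beside 5.64% and 5.38% of all probe sets. BGN, the small matrix proteoglycan biglycan, was lower by a log2 difference of -0.61 (SE 0.10, adjusted p = 0.00411), and THBD, the thrombin receptor thrombomodulin, was at 6.51 ± 0.17 against 7.09 ± 0.09 in untreated cells (-0.58, adjusted p = 0.00645). Both were called in each of the 6 fits with 1 compared array left out. LUM, the keratan sulfate core lumican, differed by -0.46 (adjusted p = 0.0474) and was called in 2 of those fits. The LUM values of the Ac-4-deoxy-GlcNAc and untreated arrays overlapped. LUM is also on the fibroblast marker list, where it was the only gene of 5 that was called, beside 11% of all probe sets. The mean of that list was 5.29 to 5.33 on the Ac-4-deoxy-GlcNAc arrays and 5.22 to 5.32 on the Ac-GlcNAc arrays, against 5.44 to 5.62 on the untreated arrays, and the part of foreign cells in these falls was not tested. Between the compounds THBD alone was called, at -0.65 for Ac-4-deoxy-GlcNAc minus Ac-GlcNAc (adjusted p = 0.0073), beside 2.38% of all probe sets. With Ac-GlcNAc against untreated cells 0 were called, beside 0.442%, and 5 had an unadjusted p under 0.05, beside 26.4%. The list median with Ac-4-deoxy-GlcNAc against untreated cells was -0.19, beside -0.05 for all probe sets. It was the value of PTPRZ1, at a low level of 3.91 against 4.11, below the 25th percentile of mean levels (4.89).

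Genes for proteins that release or process the cores fell in 5 of 11 cases with Ac-4-deoxy-GlcNAc against untreated cells, and 0 rose, beside 5.64% and 5.38% of all probe sets. The list had 15 genes, and ADAM10, ADAM17, NOTUM and CTSL were not read. MMP7, matrilysin, a protease that sheds SDC1, was at 7.49 ± 0.12 against 8.36 ± 0.11 in untreated cells (-0.87, SE 0.11, adjusted p = 0.000745). TLL1 and BMP1, tolloid-type proteases, differed by -0.71 (adjusted p = 0.00316) and -0.41 (0.0122). MMP2, gelatinase A, differed by -0.41 (0.0234), and PLAU, the urokinase-type plasminogen activator, named after its value was seen, by -0.38 (0.036). MMP7, TLL1 and BMP1 were called in each of the 6 fits with 1 compared array left out and MMP2 in 3, and the count of called genes lay between 3 and 5. The list median was -0.19 here, and -0.20 with Ac-GlcNAc against untreated cells, beside -0.05 and -0.02 for all probe sets. The -0.19 was the value of HPSE2, at a low level of 4.34 against 4.54, below the 25th percentile of mean levels (4.89). With Ac-GlcNAc against untreated cells TLL1 alone was called lower, beside 0.235% of all probe sets. It differed by -0.57 (adjusted p = 0.0494), at a low level of 4.52 against 5.09, and was called in 2 of 6 such fits and 4 of 10 other settings. Its difference was -0.38 with cyclic loess (adjusted p = 0.075) and -0.28 with the array SD as covariate. Between the compounds MMP2 alone was called, at -0.46 for Ac-4-deoxy-GlcNAc minus Ac-GlcNAc (adjusted p = 0.0314), in 1 of 6 such fits, beside 2.38% of all probe sets. HPSE, the chain-cutting heparanase, named for its role after its value was seen, differed between Ac-4-deoxy-GlcNAc and untreated cells by -0.01 (adjusted p = 0.94).

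Among 11 genes listed for the linker and chain polymerization, 2 fell with Ac-4-deoxy-GlcNAc against untreated cells and 0 rose. Over all probe sets the shares were 5.64% and 5.38%. The effect of these changes on chain synthesis was not tested. EXTL2, which transfers amino sugars to the linker, was at 7.02 ± 0.33 against 7.79 ± 0.06 in untreated cells (-0.78, adjusted p = 0.00748) and was called in each of the 6 fits with 1 compared array left out. B3GALT6, a galactosyltransferase of the linker, differed by -0.38 (adjusted p = 0.0287) and was called in 2 of them. With Ac-GlcNAc against untreated cells, and between the compounds, 0 of the 11 were called, beside 0.442% and 2.38% of all probe sets. At an unadjusted p under 0.05 there were 2 and 4, beside 26.4% and 13.6%. The list median with Ac-4-deoxy-GlcNAc against untreated cells was -0.15.

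Of 13 sulfation and epimerization genes, 5 lysosomal genes that degrade the chain and 8 cytoplasmic partners of syndecans, limma called 0 in any comparison. Of all probe sets 11% were called with Ac-4-deoxy-GlcNAc against untreated cells, 0.442% with Ac-GlcNAc against untreated cells and 2.38% between the compounds. With Ac-4-deoxy-GlcNAc against untreated cells 3, 1 and 3 genes of these lists had an unadjusted p under 0.05, beside 31.2% of all probe sets. The list medians were -0.11, -0.12 and -0.0012. The smallest adjusted p with Ac-4-deoxy-GlcNAc against untreated cells among these was that of PRKCA, a kinase bound by the SDC4 tail (0.37, adjusted p = 0.0505). NDST3 (-0.31, 0.0567) followed, at a low level of 4.05 against 4.36, and HGSNAT of the lysosomal list was at -0.30 (0.101).

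Of 5 genes that attach GPI anchors, which hold glypicans at the membrane, PIGU alone rose with Ac-4-deoxy-GlcNAc against untreated cells (0.40, adjusted p = 0.0391; 2 of 6 fits with 1 compared array left out). Of 17 basement membrane partners, 2 rose and 2 fell. All 3 lists of this paragraph are read beside the 5.38% of probe sets that rose and the 5.64% that fell. NID2, nidogen 2, and the collagen chain COL4A3 rose by 0.44 and 0.50 (adjusted p = 0.0158 and 0.0187, each called in 5 of the 6 fits). The laminin chains LAMA4 and LAMB1 differed by -0.44 and -0.37 (0.0219 and 0.0304, called in 3 and 2). Of 14 growth factors and receptors listed as binding heparan sulfate, FGFR2 alone rose (0.31, adjusted p = 0.0451, 1 of 6 fits). The count of called basement membrane partners, 4 as reported, was 1 without Ac-4-deoxy-GlcNAc replicate 1 or replicate 3, 6 with cyclic loess, 2 with the 6 compared arrays alone, and 0 with the array SD as covariate. That of the growth factor list, 1 as reported, was 4 without untreated replicate 1, with cyclic loess or with quantile normalization, and 0 without untreated replicate 2 or 3, without Ac-4-deoxy-GlcNAc replicate 1 or 3, without any 1 Ac-GlcNAc array, with the replicate block, with the 6 compared arrays alone or with the array SD as covariate. The list medians with Ac-4-deoxy-GlcNAc against untreated cells were 0.08, -0.06 and -0.13 for anchor attachment, basement membrane and growth factor genes. In these 3 lists 0 genes were called with Ac-GlcNAc against untreated cells, beside 0.442% of all probe sets. At an unadjusted p under 0.05 there were 2, 2 and 3, beside 26.4%. Between the compounds KDR, a VEGF receptor, alone was called, beside 2.38% of all probe sets. It was higher with Ac-4-deoxy-GlcNAc (0.36, adjusted p = 0.0497, 0 of 6 fits). Between the compounds 1, 6 and 3 genes of the 3 lists had an unadjusted p under 0.05, beside 13.6% of all probe sets. With Ac-4-deoxy-GlcNAc against untreated cells these were 1, 6 and 6, beside 31.2%.

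**Figure D4:**
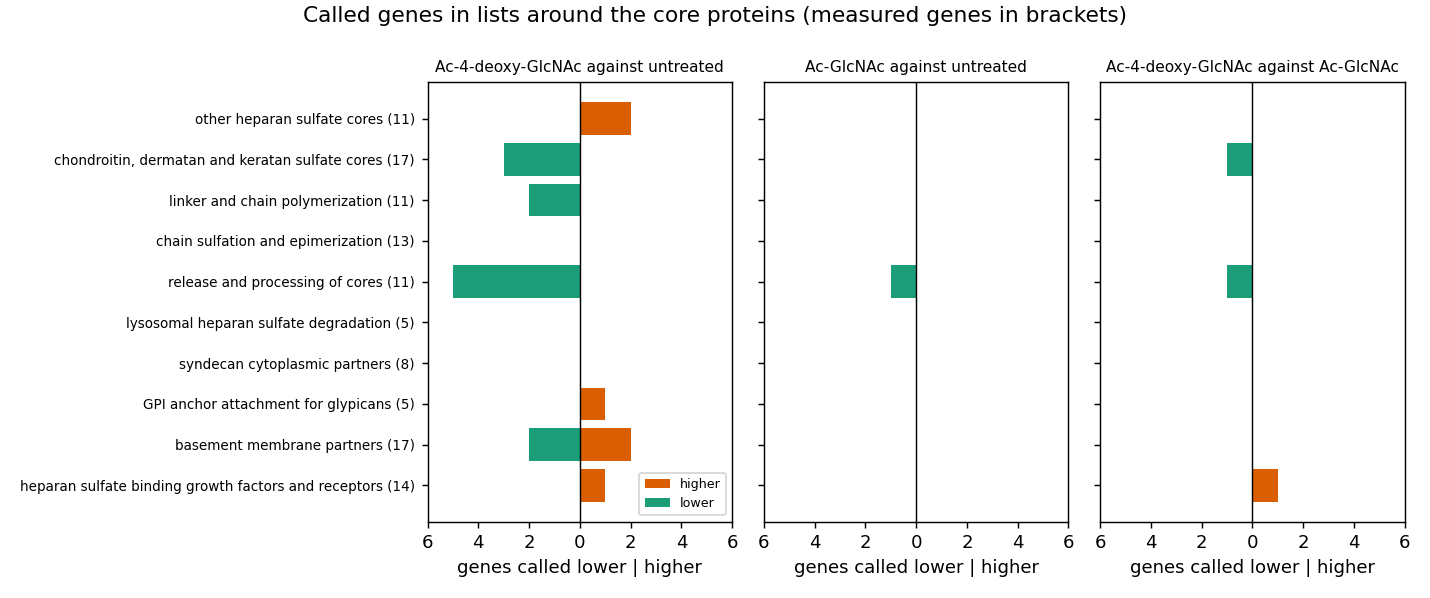
Number of genes called higher (orange, right) and lower (green, left) at an adjusted p under 0.05 in each list (rows, measured genes in brackets) and comparison (panels). The list of release and processing has the most called genes, the 5 that fell in the left panel. The lists were chosen with earlier results of these data known.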

How the data were processed

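Total RNA of 9 flasks was labelled with biotin by a GeneChip WT kit and hybridized to arrays, per the labels' protocols, and samples were grouped by their titles. The deposited log2 values (1 for each probe set on each array) are the authors' RMA output from Partek, build hg18, per the submitters' processing notes; versions, settings and filters are not given in the sources used here. No scan dates or batches were given in the labels, and signal over background was not analysed here. The number of arrays limits the precision. Of 17859 probe sets, 14413 were paired with 1 gene, 2405 with several and 1041 with none, and 14385 of the 14413 were found in RefSeq (GRCh38.p14) by gene identifier. A gene with several probe sets was read from the one with the highest mean.

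Groups were compared in a single limma fit of the 9 arrays without covariates (limma 3.58.1, R 4.3.3, lmFit and eBayes, 6 residual degrees of freedom). Tests were two-sided and p-values were adjusted by Benjamini-Hochberg across the whole table, with 0.05 as the threshold. The fit was tested on simulated arrays, and the outcome is not given here. The 10 core genes and the further lists were chosen with earlier results of these data known. All core genes were to be named, with up to 4 called genes per list and comparison by size, or up to 2 by smallest p in lists without a call, and the 3 genes most like each core gene called by the F test. P-values measure the spread between flasks. Alternatives were the replicate block, cyclic loess, quantile normalization, median centring, filters at the 25th percentile and the median of mean level, array weights, eBayes with trend and robust options, a fit of the 6 compared arrays, the array SD as covariate, the mean over the probe sets of a gene, and arrays left out. They were also applied to the lists, after the values of the lists were seen. Protein sequences were not used here.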

Additional observations from a re-analysis of the deposited data

How the results depend on the processing

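As reported, 0 core genes were called in any comparison. For Ac-4-deoxy-GlcNAc against untreated cells the count was 1, always SDC1, with cyclic loess, quantile normalization, the replicate block, either filter on low levels, trend and robust options, and array weights. With array weights it was also 1 for Ac-GlcNAc against untreated cells (GPC6) and 1 between the compounds (SDC1). The F test across the groups called 1 with cyclic loess, quantile normalization, either filter, or trend and robust options, and 2 with array weights. In the fits with 1 array left out the counts lay between 0 and 1 for Ac-4-deoxy-GlcNAc against untreated cells and for the F test, and were 0 in the other comparisons. The filters test fewer probe sets; for the other settings the cause was not tested.

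Deviations of same-numbered arrays correlated between -0.24 and 0.37, and those of differently numbered arrays between -0.40 and 0.41. With 3 arrays in a group, these ranges cannot settle whether the replicate numbers pair the arrays. With the replicate block SDC1 had an adjusted p of 0.043, and 0 core genes were called in the other comparisons. Over all probe sets the block gave 2207 calls for Ac-4-deoxy-GlcNAc against untreated cells (1968 as reported). It gave 324 for Ac-GlcNAc against untreated cells (79) and 432 between the compounds (425).

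Some differences near 0 turned sign. SDC1 for Ac-GlcNAc against untreated cells was -0.10 with cyclic loess, -0.098 with quantile normalization, -0.012 with median centring, -0.086 with array weights and -0.071 with the SD covariate, and -0.048 to 0.084 with 1 array left out. GPC4 was 0.067 with array weights for Ac-GlcNAc against untreated cells (-0.062 to 0.098 with 1 array left out), 0.0027 with median centring for Ac-4-deoxy-GlcNAc against untreated cells (-0.054 to 0.070), and -0.075 with array weights between the compounds (-0.099 to 0.061). With 1 array left out, SDC2 and SDC3 for Ac-GlcNAc against untreated cells ran from -0.088 to 0.049 and from -0.13 to 0.054, and SDC4 for Ac-4-deoxy-GlcNAc against untreated cells from -0.10 to 0.027. Of the list genes, COL4A6 for Ac-GlcNAc against untreated cells was 0.0065 with the SD covariate, against -0.31 as reported.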
